A study of Mus musculus with 6 samples.

Results

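The 10 genes described here are transcription factors that push epithelial cells towards, or hold them back from, epithelial-mesenchymal transition (EMT). Snai1, Snai2, Twist1, Twist2, Zeb1, Zeb2 and Prrx1 are inducers of the transition, and Ovol1, Ovol2 and Grhl2 are their epithelial opponents. They were taken by name from the table of raw counts, and all 10 of 10 were found among its 55385 mouse gene rows and passed the filter on low counts, which left 18504 tested genes. The libraries were made from PDVC57, an established line of transformed mouse keratinocytes that forms squamous cell carcinomas. There were 3 libraries labelled Sox2 KO (knockout) and 3 labelled Sox2 overexpression, and the series' design text speaks of cells with low or high Sox2 taken out of grafted tumours. The study's stated question is which mechanisms Sox2, a stem cell transcription factor, turns on in tumour stem cells to act on neutrophils. There was no library of unmodified PDVC57 cells among those analysed, so each difference below lies between knockout and overexpression. The construct and its promoter, the number of clones, the host animals and the way the cells were sorted are not given in the sources used here. Nothing in the labels says that replicates came from separate tumours, so p-values measure the spread between these libraries, which may be technical.

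EMT is the process by which epithelial cells lose cell-to-cell junctions and polarity and take on the shape and motility of mesenchymal cells. Zinc finger proteins of the SNAIL and ZEB families bind E-box sequences in the promoters of junction genes such as Cdh1 (E-cadherin) and repress them, while TWIST proteins are basic helix-loop-helix factors and Prrx1 is a homeobox factor of limb and craniofacial mesenchyme. OVOL and Grainyhead-like proteins repress Zeb1 and maintain junction genes, and ZEB1 represses Grhl2 and Ovol2 in turn. In squamous carcinoma of the skin these factors are best known for marking mesenchymal-like tumour cells, and most of the inducers are also made by fibroblasts.

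The E-box CAGGTG is the sequence through which SNAIL and ZEB proteins act, and the promoters of the factors and of their epithelial targets were searched for it. The search covered the 250 bases before the RefSeq start of each gene (GRCm38.p6), on both strands, for CAGGTG (SNAIL and ZEB), CCGTTA (OVOL), AACCGGTT (Grainyhead) and ACAAAG or ACAATG (SOX). These motifs do not contain one another. Among the 10 factors, the windows searched were those of Snai1, Twist1, Twist2, Zeb2, Prrx1 and Ovol2. The promoters of 3 inducers that were lower with Sox2 overexpression and of Ovol2, which was higher, are shown on the coding strand from 5′ to 3′, with motif matches in capitals. They lie at chr2:167537945-167538194 on the plus strand (Snai1), and on the minus strand at chr2:45117443-45117692 (Zeb2), chr1:163313651-163313900 (Prrx1) and chr2:144331363-144331612 (Ovol2).
Snai1: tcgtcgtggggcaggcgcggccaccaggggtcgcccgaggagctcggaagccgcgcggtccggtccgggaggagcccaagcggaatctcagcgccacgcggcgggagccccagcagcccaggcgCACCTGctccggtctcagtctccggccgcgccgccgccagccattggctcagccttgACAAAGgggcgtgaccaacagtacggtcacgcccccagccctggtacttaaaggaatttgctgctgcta
Zeb2: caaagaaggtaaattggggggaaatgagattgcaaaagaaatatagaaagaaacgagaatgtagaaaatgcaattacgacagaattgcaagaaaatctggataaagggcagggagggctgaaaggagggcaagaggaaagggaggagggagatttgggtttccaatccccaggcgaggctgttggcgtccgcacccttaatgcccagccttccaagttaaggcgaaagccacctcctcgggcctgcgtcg
Prrx1: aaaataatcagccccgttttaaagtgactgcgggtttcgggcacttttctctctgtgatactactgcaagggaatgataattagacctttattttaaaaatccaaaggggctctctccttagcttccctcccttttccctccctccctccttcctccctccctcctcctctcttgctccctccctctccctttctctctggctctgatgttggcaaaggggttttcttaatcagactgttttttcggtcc
Ovol2: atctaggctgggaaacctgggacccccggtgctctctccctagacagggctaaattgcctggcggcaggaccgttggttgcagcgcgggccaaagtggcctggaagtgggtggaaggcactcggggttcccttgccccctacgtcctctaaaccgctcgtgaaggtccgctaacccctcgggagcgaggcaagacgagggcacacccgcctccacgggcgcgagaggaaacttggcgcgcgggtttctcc
Snai1 was the only factor of the 6 whose window held a match. Its CACCTG, an E-box read on the other strand, lay 126 bases before the start, and its ACAAAG lay 69 bases before it. At least one CAGGTG stood in 17.1% of all 27025 promoter windows of this length and in 15.5% of the 12291 windows of tested genes, and ACAAAG in 16.5% and 12.4%. The windows of Snai1, Twist2, Ovol2 and Twist1 held 70.0%, 68.8%, 65.2% and 62.4% G and C, and those of Zeb2 and Prrx1 49.6% and 47.6%. The 3 inducers that fell and whose window was searched (Snai1, Zeb2 and Prrx1) thus shared no match to these letters there.

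The same search was made for 26 junction and other epithelial genes, many of them known targets of SNAIL or ZEB repression. Of the 26 genes, 16 had a window, and 9 of those 16 (56.3%) held a CAGGTG. Among 18 mesenchymal genes, 10 had a window that was searched and 1 of those held it (Wnt5b). Those 9 genes are shown around one of their E-boxes, in capitals, on the coding strand.
Crb3: gggttcccgttaCAGGTGctctggcggcgc
Rab25: ccacctgtgcccCAGGTGcccagcggagct
Ap1m2: ttaagacgcgctCACCTGgcggctcacctg
Tjp3: gtcacaaggggtCAGGTGtacagacaggga
Epcam: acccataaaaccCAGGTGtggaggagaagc
Spint2: aggccgcagagcCAGGTGcggggccctccg
Lsr: gaggcaggagcgCACCTGagtcagcccact
Patj: tggagagcggccCAGGTGaggaggcggccg
Cldn4: ctttaactgcagCACCTGtggccgcc
The E-boxes shown lay at chr17:57062138-57062143 (Crb3), chr3:88548327-88548332 (Rab25), chr9:21312349-21312354 (Ap1m2), chr10:81291684-81291689 (Tjp3) and chr17:87635960-87635965 (Epcam). The others lay at chr7:29282027-29282032 (Spint2), chr7:30973533-30973538 (Lsr), chr4:98395807-98395812 (Patj) and chr5:134946943-134946948 (Cldn4). Lsr and Ap1m2 held 4 E-boxes each, and Crb3 and Spint2 held 3. All 9 genes with an E-box in the window were higher with overexpression past the threshold, as were 2 of the 7 without one and 13.6% of all tested genes. With libraries scaled to keratinocyte markers, 4 of all 26 epithelial genes passed the threshold, 3 higher and 1 lower. These shares describe the letters of the windows and were not tested, and a match does not show that a protein binds there.

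Over mouse genes, the knockout libraries held 31611892 to 35827402 counts and the overexpression libraries 31247976 to 38543221. Sox2 itself averaged 1.08 ± 0.377 CPM (counts set against the scaled library size) in the knockout group and 103 ± 24.9 CPM in the overexpression group (SD, n = 3 each), the direction the labels give. Of 14 keratinocyte markers 10 were higher, among them Trp63, 0 were lower and 4 did not pass the threshold, among them Krt5 and Krt14, and their summed level was 2532 to 5774 CPM with knockout and 8731 to 13464 CPM with overexpression. Fibroblast markers separated the groups far more: the 12 genes of that list summed to 58958 to 87404 CPM with knockout and 267 to 430 CPM with overexpression, a ratio of means of 227. All 12 were lower, and none was at 3 or fewer counts in every overexpression library. In bulk libraries, fewer cells of a type and less RNA per cell cannot be told apart. Mural cell markers summed to 483 to 607 CPM with knockout and 92.3 to 131 CPM with overexpression, with 7 of 8 lower and Notch3 higher. Endothelial markers summed to 33.4 to 122 and 13.3 to 20.1 CPM, with 6 of 7 tested lower. Of 9 tested markers of white blood cells 6 were lower and 1, Flt3, was higher, while their sums overlapped (452 to 844 and 711 to 1232 CPM). Cd74 made up most of those sums, with means of 605 CPM under knockout and 1006 CPM under overexpression. Ptprc, which defines those cells, had 363, 654 and 3215 counts with knockout, replicates 1, 2 and 3, and 14 to 20 with overexpression. Schwann cell markers had 1 of 5 tested genes, Erbb3, higher and 0 lower. Sox10, also on that list, did not pass the count filter, with 17, 120 and 10 counts in knockout replicates 1, 2 and 3 and at most 2 with overexpression.

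The inducers did not move as one. Of the 7 inducers, Zeb1, Prrx1, Snai1 and Zeb2 fell with Sox2 overexpression, by 27.1, 42.6, 6.80 and 4.01 times in mean CPM. Twist1, Twist2 and Snai2 did not pass the threshold, with mean CPM of 78.0, 39.8 and 15.7 with knockout and 59.1, 40.3 and 19.5 with overexpression. Of the 3 epithelial opponents, Grhl2 and Ovol2 rose, both by 2.4 times, and Ovol1 did not pass the threshold. In the edgeR quasi-likelihood test, 31.6% of all 18504 tested genes had an adjusted p under 0.05, 13.6% higher and 18.0% lower, and among the factors 6 of 10 did, 2 higher and 4 lower. With so few members that share is imprecise, and its difference from the background was not tested. For 7 of the 10 the groups did not overlap, against 50.9% of all tested genes. The median log2 fold change, overexpression over knockout, was -0.19 for the 10 factors and -0.016 for every gene tested. Prrx1, Zeb1, Snai1 and Zeb2 fell at least 4-fold by the fitted change, as did 11.5% of all tested genes.

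**Figure D1:**
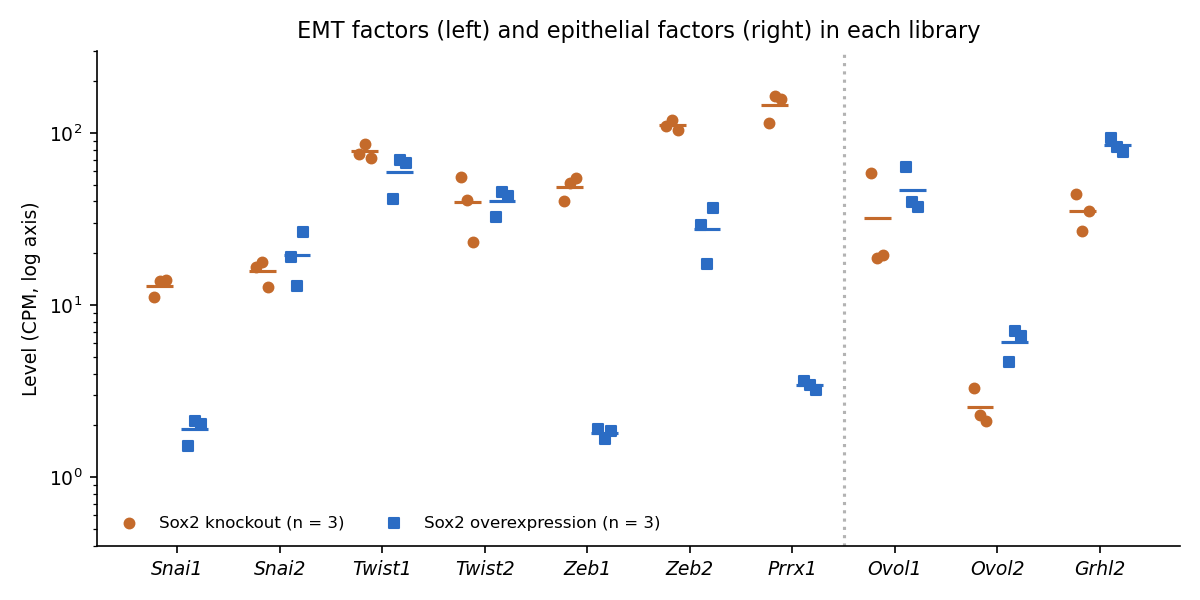
Level of each factor in CPM (log axis) in the 3 knockout libraries (circles) and the 3 overexpression libraries (squares), with the group mean as a bar. Zeb1, Prrx1, Snai1 and Zeb2 separate downward, Grhl2 and Ovol2 upward, and the groups of Snai2, Twist2 and Ovol1 overlap.

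Zeb1, on chromosome 18 (ENSMUSG00000024238), encodes a zinc finger and homeodomain repressor that is the central opponent of the epithelial state. Its level was 40.2, 51.2 and 54.8 CPM in knockout replicates 1, 2 and 3, and 1.89, 1.66 and 1.85 CPM in overexpression replicates 1, 2 and 3. The overexpression libraries held 49 to 73 counts each, above the limit of 3 counts that a count of 0 allows. The log2 fold change was -4.76 (SE 0.20, edgeR, adjusted p = 1.56e-06), and the groups lay far apart. Its exons overlap those of Gm10125 on the other strand, which held at most 81 counts in a library.

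Zeb2 (ENSMUSG00000026872, chromosome 2, 44983632 to 45117395, GRCm38), the paralog of Zeb1, is also made by macrophages and lymphocytes. It stood at 110, 119 and 104 CPM in knockout replicates 1, 2 and 3 and at 29.1, 17.4 and 36.4 CPM in overexpression replicates 1, 2 and 3. Every knockout library was above every overexpression library, with a log2 fold change of -2.002 (SE 0.25, edgeR, adjusted p = 0.000457). Ptprc, also lower with overexpression, was at 10.6, 21.6 and 88.1 CPM in the knockout replicates 1, 2 and 3 and at most 0.541 CPM with overexpression, and its part in the result was not tested. The overexpression libraries still held 513 to 1441 counts of Zeb2. Zeb2os, an antisense gene that shares 653 bases of exon with Zeb2, held 65 to 127 counts in every library, and without strand information reads of the 2 genes cannot be told apart.

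Because both genes were counted in the same library, the ratio of Zeb1 to Zeb2 does not depend on how libraries are scaled. The log2 ratio of counts was -1.45, -1.21 and -0.92 in knockout replicates 1, 2 and 3 and -3.94, -3.39 and -4.30 in overexpression replicates 1, 2 and 3. The mean went from -1.19 ± 0.27 to -3.88 ± 0.46 (SD, n = 3 each), so Zeb1 fell 6.42 times further than Zeb2. An exact two-sided permutation test gave p = 0.1, the smallest that 3 libraries against 3 can give, and an adjusted p of 0.15 over the 6 ratios compared.

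Prrx1 (ENSMUSG00000026586, chromosome 1, 163245119 to 163313710, GRCm38) had the largest change of the 10. It was at 114, 163 and 158 CPM in knockout replicates 1, 2 and 3 and at 3.60, 3.42 and 3.21 CPM in overexpression replicates 1, 2 and 3. The overexpression libraries were close to each other, with a mean of 3.41 ± 0.194 CPM against 145 ± 26.8 CPM with knockout (SD, n = 3 each). On the log2 scale the difference was -5.41, 95% interval -5.88 to -4.94 (edgeR, adjusted p = 1.44e-06).

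Snai1 (ENSMUSG00000042821, chromosome 2, 167538195 to 167542814, GRCm38) encodes SNAIL, the zinc finger repressor with the E-box and the SOX match in its own promoter window shown above. It was at 11.1, 13.7 and 14.0 CPM in knockout replicates 1, 2 and 3 and at 1.53, 2.13 and 2.05 CPM in overexpression replicates 1, 2 and 3. The groups did not overlap, and the log2 fold change was -2.76 (SE 0.25, edgeR, adjusted p = 5.81e-05).

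Snai2 (ENSMUSG00000022676, chromosome 16, 14705852 to 14709385, GRCm38) encodes SLUG, which basal keratinocytes also express. It was at 16.5, 17.9 and 12.8 CPM in knockout replicates 1, 2 and 3 and at 19.0, 12.9 and 26.6 CPM in overexpression replicates 1, 2 and 3. The groups overlapped, and the log2 fold change was 0.31 with a 95% interval from -0.30 to 0.93 (edgeR, adjusted p = 0.409). That interval leaves room for a change from 0.811 to 1.90 times. The log2 ratio of Snai1 to Snai2 counts was -0.28 ± 0.36 with knockout and -3.31 ± 0.62 with overexpression (SD, n = 3 each), a relative fall of Snai1 of 8.21 times without overlap (exact permutation test, two-sided, p = 0.1, adjusted p = 0.15).

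Twist1 (ENSMUSG00000035799, chromosome 12, 33957671 to 33959829, GRCm38) was at 75.8, 86.5 and 71.8 CPM in knockout replicates 1, 2 and 3. It was at 41.2, 69.2 and 67.0 CPM in overexpression replicates 1, 2 and 3. All overexpression libraries lay below the knockout libraries, but only by a small margin in replicates 2 and 3. The log2 fold change was -0.40 with a 95% interval from -0.88 to 0.077 (edgeR, adjusted p = 0.181), or 0.545 to 1.05 times. The overexpression libraries held 1350 to 2648 counts of it.

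Twist2 (ENSMUSG00000007805, chromosome 1, 91801461 to 91848028, GRCm38), its close relative, is known from the developing dermis. It was at 55.7, 40.8 and 23.1 CPM in knockout replicates 1, 2 and 3 and at 32.6, 45.4 and 42.9 CPM in overexpression replicates 1, 2 and 3. The groups overlapped fully, with a log2 fold change of 0.017 and a 95% interval from -0.65 to 0.69 (edgeR, adjusted p = 0.972). Its exons share 1477 bases with Gm29100 on the other strand, which held at most 99 counts. The log2 ratio of Twist1 to Twist2 counts was 1.06 ± 0.60 with knockout and 0.53 ± 0.17 with overexpression (SD, n = 3 each), and these values overlapped (exact permutation test, two-sided, p = 0.3, adjusted p = 0.36).

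Among the epithelial opponents, Grhl2 (ENSMUSG00000022286, chromosome 15, 37233036 to 37363569, GRCm38) encodes a Grainyhead-like factor that activates Cdh1 and claudin genes. It was at 43.9, 27.0 and 35.0 CPM in knockout replicates 1, 2 and 3 and at 93.6, 82.8 and 77.5 CPM in overexpression replicates 1, 2 and 3. The groups did not overlap, and the log2 fold change was 1.26 (SE 0.20, edgeR, adjusted p = 0.00142). Gm16136, an antisense gene that shares 169 bases of exon with Grhl2, also had more counts with overexpression, 466 to 619 against 117 to 202.

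Ovol2 (ENSMUSG00000037279, chromosome 2, 144305175 to 144332146, GRCm38), a zinc finger repressor of Zeb1, was the least abundant of the 10 in the knockout libraries. It was at 3.28, 2.28 and 2.11 CPM in knockout replicates 1, 2 and 3 and at 4.64, 7.10 and 6.63 CPM in overexpression replicates 1, 2 and 3. The log2 fold change was 1.26 (SE 0.30, edgeR, adjusted p = 0.0134), and it went to an adjusted p of 0.0547 without knockout replicate 2. The groups did not overlap.

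Ovol1 (ENSMUSG00000024922, chromosome 19, 5549136 to 5560646, GRCm38), which acts in the exit of keratinocytes from proliferation, varied most of the factors among the knockout libraries, relative to its mean. It was at 58.3, 18.8 and 19.5 CPM in knockout replicates 1, 2 and 3 and at 63.5, 39.7 and 37.1 CPM in overexpression replicates 1, 2 and 3. Replicate 1 was the highest library in both groups, and the groups overlapped through it. The log2 fold change was 0.54 with a 95% interval from -0.45 to 1.53 (edgeR, adjusted p = 0.378). Without knockout replicate 1 it was 1.30 and passed the threshold (edgeR, adjusted p = 0.00838; over the alternatives it lay between 0.00838 and 0.701). That library also had the lowest fibroblast marker sum of the knockout group, 58958 CPM. Its sum of epithelial target genes was the highest, 4166 CPM against 2730 and 3116 CPM. Its keratinocyte marker sum was not the highest, 5023 CPM against 5774 and 2532 CPM in knockout replicates 2 and 3. The part of these in the result was not tested. The log2 ratio of Ovol1 to Ovol2 counts was 3.47 ± 0.60 with knockout and 2.91 ± 0.75 with overexpression (SD, n = 3 each), and these values overlapped (exact permutation test, two-sided, p = 0.5, adjusted p = 0.5).

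**Figure D2:**
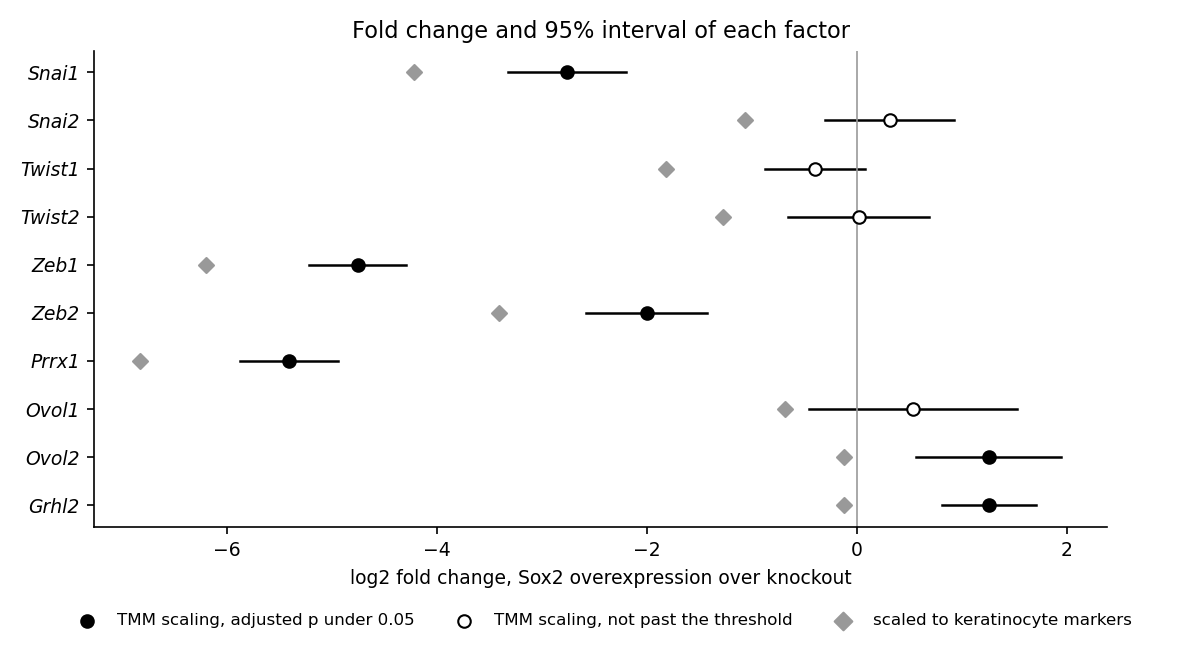
Log2 fold change of each factor, overexpression over knockout, with its 95% interval from the edgeR fit (circles, filled where adjusted p is under 0.05) and the value when libraries are scaled to 14 keratinocyte markers (diamonds). Zeb1, Prrx1, Snai1 and Zeb2 lie below 0 on both scales, while Grhl2 and Ovol2 move from 1.26 to -0.12.

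The calls depended on what the libraries were scaled to. When each library was scaled to its keratinocyte markers, the median gene moved to a log2 fold change of -1.41. Scaling acts on all genes together, and of all 18504 tested genes 12351 were then called, 257 higher and 12094 lower. Among the factors 6 of the 10 were called, 0 higher and 6 lower. On that scale Grhl2 and Ovol2 both had a log2 fold change of -0.12 (edgeR, adjusted p = 0.807 and 0.854). Zeb1, Prrx1, Snai1 and Zeb2 had log2 fold changes of -6.20, -6.82, -4.22 and -3.41 on it. Twist1 and Twist2 were lower past the threshold on it, with -1.82 (edgeR, adjusted p = 0.000625) and -1.27 (edgeR, adjusted p = 0.0153), and Snai2 had -1.06 (edgeR, adjusted p = 0.055). Over all 13 alternatives, the adjusted p of Twist1 ranged from 0.000625 to 0.462, that of Twist2 from 0.0153 to 0.985 and that of Grhl2 from 2.31e-07 to 0.807.

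The same counts were set against the marker genes of each library, since fibroblast and keratinocyte markers moved with the groups. Per 100000 counts of keratinocyte markers, the knockout replicates 1, 2 and 3 held 874, 467 and 1383 counts of Grhl2 and the overexpression replicates 1, 2 and 3 held 1072, 803 and 576. These values overlapped. Ovol2 had 62.7 counts on average with knockout and 57.1 with overexpression on that denominator, and Ovol1 751.7 and 463, and these overlapped too. The 7 inducers were all lower per keratinocyte marker count, without overlap. The falls ran from 2.12 times for Snai2 and 2.41 times for Twist2 to 74.9 times for Zeb1 and 115 times for Prrx1. The summed level of those markers rose 2.44 times in mean CPM, so a gene with unchanged CPM falls by about as much here. The share of all genes that separated on this denominator was not counted.

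Against fibroblast markers all 10 factors were higher with overexpression, without overlap. The summed level of these 12 genes fell 227 times in mean CPM, so any gene that fell much less is higher here. The share of all genes higher on this denominator was not counted. Per 100000 counts of those 12 genes, Prrx1 stood at 194, 186 and 193 in knockout replicates 1, 2 and 3 and at 1349, 1108 and 746 in overexpression replicates 1, 2 and 3, a ratio of means of 5.59. Zeb1 stood at 68.3, 58.5 and 67.0 in knockout replicates 1, 2 and 3 and at 709, 538 and 429 in overexpression replicates 1, 2 and 3, a ratio of 8.65. The ratio was 33.7 for Snai1, 55.6 for Zeb2, 170 for Twist1, 218 for Twist2 and 273 for Snai2. Prrx1 and Zeb1 had the smallest ratios of the 10, so both fell less than the fibroblast markers. The part of fibroblast RNA in the falls was not tested.

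**Figure D3:**
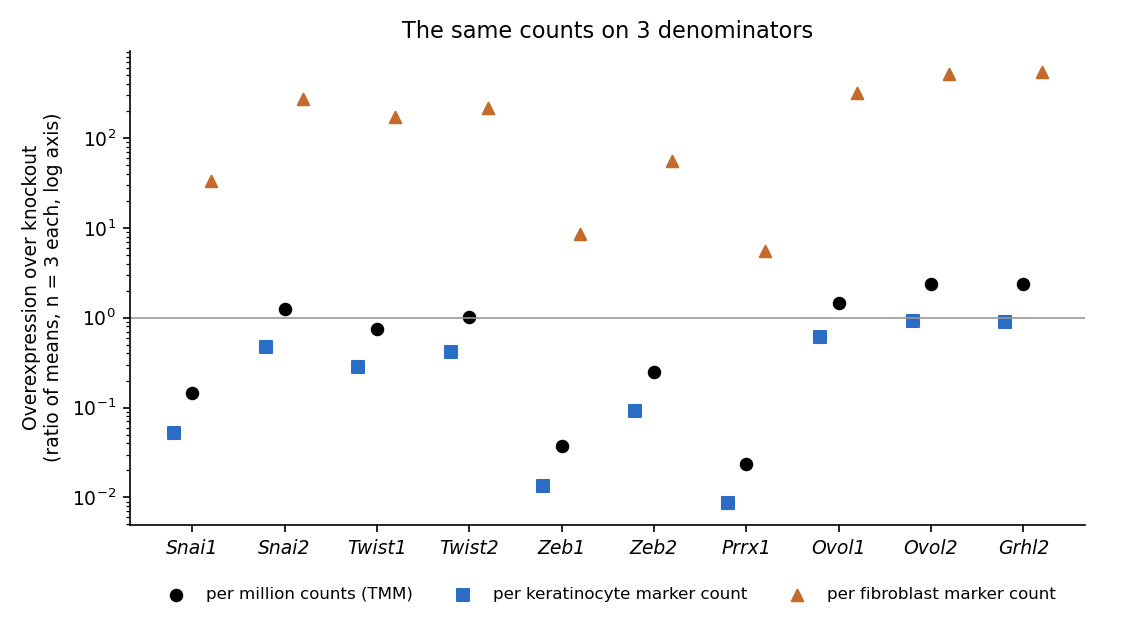
Ratio of overexpression to knockout means (n = 3 libraries each, log axis) for each factor, as CPM (circles), per keratinocyte marker count (squares) and per fibroblast marker count (triangles). All 10 triangles lie above 1, from 5.59 for Prrx1 upward, and all 10 squares lie below 1. In mean CPM the fibroblast marker sum fell 227 times and the keratinocyte marker sum rose 2.44 times, which moves all genes alike.

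Ovol2 and Zeb1, and Grhl2 and Zeb1, are known to repress each other, and their ratios within a library do not depend on how libraries are scaled. In bulk libraries the 2 genes of a ratio may be expressed in different cells, so a ratio does not give a balance within a cell. The part of fibroblast RNA in these ratios was not tested. The log2 ratio of Ovol2 to Zeb1 counts was -3.62, -4.49 and -4.70 in knockout replicates 1, 2 and 3 and 1.29, 2.10 and 1.84 in overexpression replicates 1, 2 and 3. The log2 ratio of Grhl2 to Zeb1 counts was 0.13, -0.92 and -0.65 in knockout replicates 1, 2 and 3 and 5.63, 5.64 and 5.39 in overexpression replicates 1, 2 and 3. The mean ratios moved by 64.6 and 65.6 times, and no library of one group came near the other group (exact permutation test, two-sided, p = 0.1 for each, adjusted p = 0.15). In CPM, Zeb1 fell 27.1 times and Grhl2 and Ovol2 rose 2.4 times, but this division of the shift depends on the scaling. Per keratinocyte marker count Zeb1 fell 74.9 times, while the groups overlapped for Grhl2 and Ovol2. Per fibroblast marker count Zeb1 rose 8.65 times, and Grhl2 and Ovol2 rose 540 and 519 times.

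**Figure D4:**
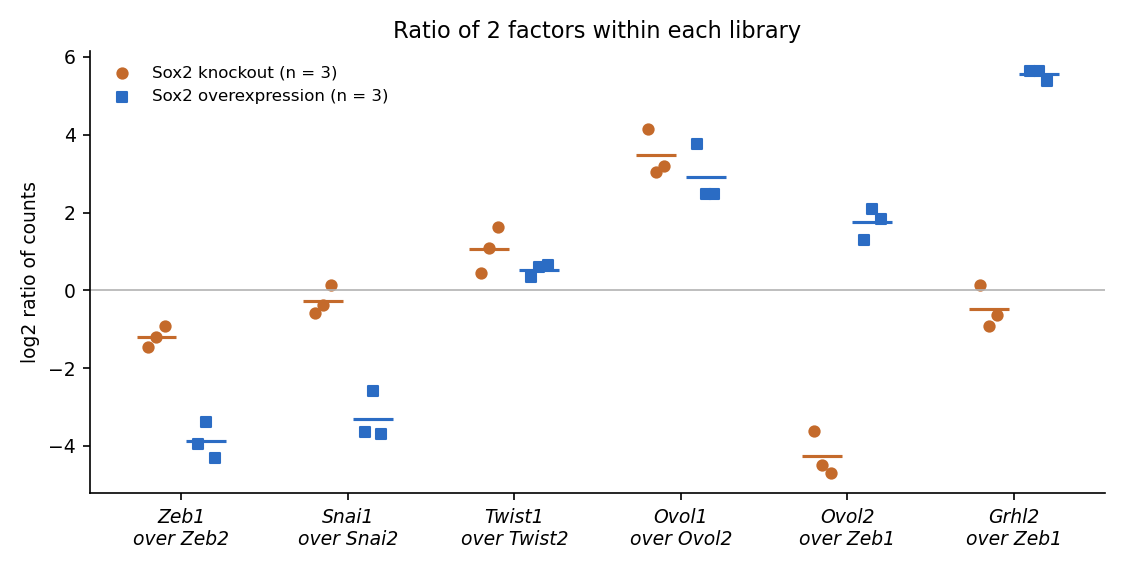
Log2 ratio of the counts of 2 factors within each library, for the knockout (circles) and overexpression libraries (squares), with group means as bars. Zeb1 over Zeb2 and Snai1 over Snai2 drop, Ovol2 over Zeb1 and Grhl2 over Zeb1 rise by about 6 on the log2 scale, and the groups overlap for the Twist and Ovol pairs.

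Levels were compared between factors as CPM per kilobase of merged exon (GENCODE M21). Merged exons join all transcripts of a gene (1 for Twist1, 29 for Zeb2), which lowers the value where the transcripts present are shorter. By this measure Twist1 was the most abundant factor in both groups, at 47.9 ± 4.65 with knockout and 36.3 ± 9.56 with overexpression (SD, n = 3 each), apart from all others. In plain CPM, Prrx1 (145) and Zeb2 (111) were above Twist1 (78.0) with knockout, and Grhl2 (84.6) was above Twist1 (59.1) with overexpression. With knockout, Prrx1 (13.1), Twist2 (12.6), Ovol1 (9.23), Snai1 (7.98) and Snai2 (7.78) followed, and neighbours in this order overlapped. Zeb2 (5.55), Zeb1 (4.75) and Grhl2 (4.10) came next, apart from Snai2 and again overlapping in turn, and Ovol2 (1.21) was lowest and apart. With overexpression, Ovol1 (13.4), Twist2 (12.7), Grhl2 (9.83) and Snai2 (9.65) followed Twist1, and neighbours overlapped. Ovol2 (2.90) lay below them and above Zeb2 (1.38) and Snai1 (1.17), which overlapped each other. Prrx1 (0.308) and Zeb1 (0.175) were lowest, each apart from its neighbour. Prrx1 thus went from the second place to the ninth, and Grhl2 from the ninth to the fourth.

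Other transcription factors with roles in EMT were mixed in direction. Of 12 such genes 10 were tested, 3 rose, 2 fell and 5 did not pass the threshold, for a list median of -0.13 in log2 fold change, where 13.6% of all tested genes were higher and 18.0% lower. With keratinocyte marker scaling 0 were higher and 7 lower, where 257 of all 18504 tested genes were higher and 12094 lower. Tcf4, an E-protein partner of TWIST, was at 121 to 125 CPM in the knockout libraries and 36.2 to 53.4 CPM in the overexpression libraries (log2 fold change -1.49, edgeR, adjusted p = 0.00026). Foxc2 was at 21.7 to 31.3 and 9.98 to 18.1 CPM (log2 fold change -0.96, edgeR, adjusted p = 0.0185). Prrx2, the paralog of Prrx1, went the other way: it was at 42.6, 53.2 and 34.5 CPM in knockout replicates 1, 2 and 3 and at 68.0, 113 and 79.8 CPM in overexpression replicates 1, 2 and 3. Its log2 fold change was 1.00 (SE 0.23, edgeR, adjusted p = 0.0111). The forkhead genes Foxc1 and Foxq1 were also higher, with log2 fold changes of 0.94 (edgeR, adjusted p = 0.00569) and 1.83 (edgeR, adjusted p = 0.00831). Foxf2 and Gsc did not pass the count filter, with at most 3 counts in an overexpression library.

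Other epithelial transcription factors were compared in the same way. Of 12 such genes 11 were tested, 7 were higher, 0 were lower and 4 did not pass the threshold, with a median log2 fold change of 1.18, where 13.6% of all tested genes were higher. With keratinocyte marker scaling 3 passed the threshold, 2 higher and 1 lower, where 257 of all 18504 tested genes were higher and 12094 lower. Trp63 is both on this list and among the markers used for that scaling, so its value there is not independent of the scaling. Grhl1, a paralog of Grhl2, was at 7.59, 4.53 and 2.74 CPM in knockout replicates 1, 2 and 3 and at 43.5, 22.4 and 24.2 CPM in overexpression replicates 1, 2 and 3. Its log2 fold change was 2.60 (edgeR, adjusted p = 0.00142), larger in size than that of Grhl2, though that difference was not tested. Elf3, an epithelial ETS factor, went from 77.7 ± 37.4 to 405 ± 153 CPM (SD, n = 3 each, edgeR, adjusted p = 0.00176). Grhl3 (17.2 CPM with knockout and 33.5 CPM with overexpression) and Klf4 (1356 and 1560 CPM) did not pass the threshold, and Ovol3 did not pass the count filter.

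Most of the 26 epithelial genes searched for E-boxes above were higher with overexpression. All 26 were tested, 20 were higher, 0 were lower and 6, among them Prom2 (log2 fold change 0.0034) and Cldn1 (0.53), did not pass the threshold, with a median log2 fold change of 1.18 where 13.6% of all tested genes were higher. The tight junction gene Tjp3, with an E-box in its promoter window, was at 1.91, 1.49 and 1.62 CPM in knockout replicates 1, 2 and 3 and at 68.5, 37.2 and 20.9 CPM in overexpression replicates 1, 2 and 3. Its log2 fold change was 4.65 (edgeR, adjusted p = 8.3e-05), the largest of the list, and its exons share 40 bases with Apba3 on the other strand. Rab25, a GTPase of epithelial recycling, went from 22.7 ± 6.08 to 133 ± 34.2 CPM, and the polarity gene Llgl2 from 15.8 ± 4.22 to 59.8 ± 10.8 CPM (SD, n = 3 each). Cdh1, the best known target, was at 298, 196 and 309 CPM in knockout replicates 1, 2 and 3 and at 657, 750 and 614 CPM in overexpression replicates 1, 2 and 3 (log2 fold change 1.33, edgeR, adjusted p = 0.0015).

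Mesenchymal genes fell almost without exception. All 18 were tested, 17 fell and 1 rose, for a list median of -2.63 in log2 fold change, where 18.0% of all tested genes were lower. Cdh11, a mesenchymal cadherin, was at 212, 201 and 183 CPM in knockout replicates 1, 2 and 3 and at 0.671, 1.05 and 1.32 CPM in overexpression replicates 1, 2 and 3. The collagen cross-linking enzyme gene Lox fell from 299.98 ± 92.4 to 1.90 ± 0.151 CPM and the metalloprotease gene Mmp2 from 1198 ± 313 to 6.32 ± 1.86 CPM (SD, n = 3 each). With keratinocyte marker scaling 17 were lower and 0 higher, where 12094 of all 18504 tested genes were lower and 257 higher. S100a4, which encodes a calcium-binding protein, was the exception, with 53.6 ± 14.6 CPM under knockout and 126 ± 34.2 CPM under overexpression (SD, n = 3 each, log2 fold change 1.23, edgeR, adjusted p = 0.00693). Fibroblasts also express many of these genes, and the fibroblast markers described above fell in the same libraries, with a median log2 fold change of -7.92. The part of fibroblast RNA in this list was not tested.

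**Figure D5:**
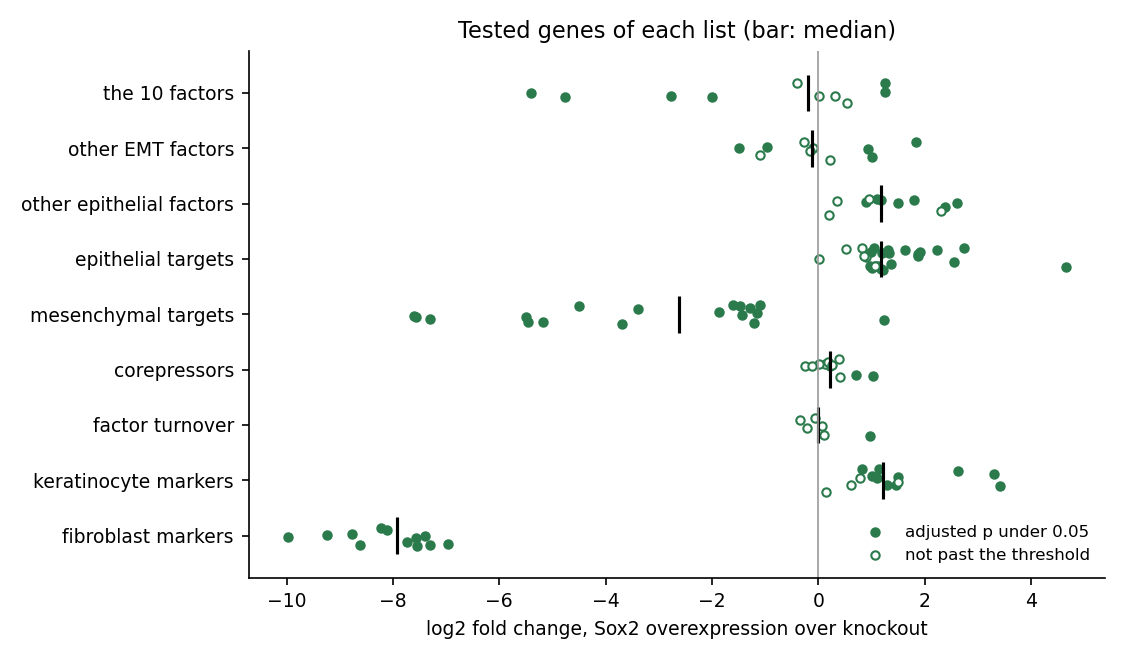
Log2 fold change, overexpression over knockout, of every tested gene of each list (filled where adjusted p is under 0.05), with the median as a bar. Epithelial targets and other epithelial factors have medians of 1.18, mesenchymal targets -2.63 and fibroblast markers -7.92, while the corepressors lie near 0.

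Corepressors are the proteins through which SNAIL and ZEB factors repress. Of 11 such genes 2 were higher, 0 were lower and 9 did not pass the threshold, a share near the 13.6% of all tested genes that were higher. The list median was 0.23 in log2 fold change. The 2 were Ajuba, a LIM protein that binds SNAIL, at 75.2 ± 12.96 CPM with knockout and 154 ± 9.87 CPM with overexpression (SD, n = 3 each), and the histone deacetylase gene Hdac1, with a log2 fold change of 0.72 (edgeR, adjusted p = 0.0176). The count was 1 without any single knockout library and 5 without overexpression replicate 2, and with keratinocyte marker scaling 0 were higher and 9 lower. Of 6 genes for the turnover of SNAIL and related proteins, Fbxl14, a ubiquitin ligase subunit, was higher (46.4 ± 3.76 to 90.9 ± 10.7 CPM, SD, n = 3 each, edgeR, adjusted p = 0.00138). The other 5, among them Gsk3b and Btrc, did not pass the threshold, and with keratinocyte marker scaling 0 of the 6 were higher and 5 lower. On that scale 257 of all 18504 tested genes were higher and 12094 lower, the background for both lists.

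The genes whose profile over the 6 libraries was nearest to those of Twist1 and Grhl2, the inducer and the opponent with the highest mean log2 CPM (not per length), were sought among 11162 other genes, by the root-mean-square difference of log2 CPM after centring. For Twist1 they were Acap3 (0.053), Gdf11 (0.062) and Rilpl1 (0.083). For Grhl2 they were Mpzl3 (0.082), Esrp2 (0.089) and Ap5b1 (0.097). Esrp2, an epithelial splicing factor of the target list, was at 38.5 ± 8.67 CPM with knockout and 89.3 ± 7.37 CPM with overexpression (SD, n = 3 each). Its exons share 219 bases with Nfatc3 on the other strand, and reads of that stretch cannot be told apart.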

How the data were processed

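The authors deposited one table of raw counts, unnormalized whole numbers for each gene, with 1 column per library, matched to samples by the labels' descriptions. Kallisto 0.44.0 and mm10 are named in the submitters' processing notes without a role; the way reads became gene counts, their annotation and their strandedness are not given in the sources used here. RNA came from a kit for small samples and libraries from a low-input kit, per the labels' protocols. Of 55481 rows, 96 name no mouse gene and stayed out of totals and tests (up to 2.23e-05% of the counts). Symbols, positions and exon lengths came from GENCODE M21 (GRCm38), with 55144 IDs matched, and promoter sequences from RefSeq (GRCm38.p6).

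After filterByExpr (at least 10 counts, 15 in total) and TMM scaling, edgeR 4.0.16 in R 4.3.3 ran its quasi-likelihood test on all 6 libraries with the group as the only term, and Benjamini-Hochberg adjustment covered all 18504 genes (threshold 0.05). The standard error is the log2 fold change divided by the square root of F. CPM uses TMM-scaled library sizes. A count of 0 allows up to 3 counts, 0.0759 to 0.101 CPM, for counting error only. Replicate pairs differed beyond sampling noise (chi-square per degree of freedom at least 45.04). Ratios between factors were compared by exact permutation.

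The members and lists were chosen with earlier results of these data known. Named genes are the 10 factors, Sox2, the marker genes, up to 3 genes per list and direction with the smallest p, genes against their list, and the nearest profiles; Cdh1, Prom2, Cldn1, Grhl3, Klf4, Gsk3b, Btrc, genes that missed the count filter and the genes shown by sequence were named after their values were seen. One gene that this rule names is not reported here. Alternatives were RLE, upper-quartile and keratinocyte marker scaling, no count filter, robust dispersion, a replicate block, DESeq2 1.42.0 and leaving out each library. The fit was tested first on simulated counts with 200 changed genes, far fewer than were called here, so scaling under a broad shift was not checked. It recovered 105 of 111 4-fold changes and 46 of 89 2-fold changes, with 6 false calls.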

Additional observations from a re-analysis of the deposited data

Results flagged for a closer look

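The mCherry reporter row, which names no mouse gene and entered no comparison, had 8 counts in knockout replicate 3, above the limit of 3 counts that a count of 0 allows, with 1 count in knockout replicate 2 and 0 in the other 4 libraries.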

How the results depend on the processing

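Of the 10 factors, Zeb1, Prrx1, Snai1 and Zeb2 kept their direction and an adjusted p under 0.05 in all 13 alternatives, with log2 fold changes from -6.20 to -4.66, -6.82 to -5.31, -4.22 to -2.61 and -3.41 to -1.74. The count of factors called was 5 to 7. Scaling to the keratinocyte markers called 12351 of all tested genes, of which 2.08% were higher against 43.1% with TMM. It called 3 other epithelial factors, 4 epithelial targets, 9 corepressors (all lower) and 5 turnover genes, and gave log2 fold changes of -1.06 for Snai2, -1.27 for Twist2, -0.68 for Ovol1, -0.12 for Ovol2 and -0.12 for Grhl2. Elsewhere Twist2 stayed near 0: -0.043 with upper-quartile scaling, and from -0.25 to 0.35 when 1 library was left out. RLE called 4 corepressors, and leaving out 1 library 1 to 5. Without knockout replicate 2, Ovol2 had an adjusted p of 0.0547.

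The labels share replicate numbers, but same-numbered libraries did not deviate together (correlations of 0.051, 0.022 and -0.040). A fit with the replicate block gave a log2 fold change of 0.71 for Ovol1 (edgeR, adjusted p = 0.0358) and changed no other call among the 10 factors. Causes of these changes were not tested. Low counts limit Ovol2 in the knockout libraries, with 69 to 112 counts, and Snai1 and Zeb1 in the overexpression libraries, with 49 to 81.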
